A study of Mus musculus with 40 samples.

Results

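Lysophospholipid acyltransferases, the enzymes that attach a fatty acid to a phospholipid that has lost one, were followed in gonadal white adipose tissue of male C57BL/6J mice. The genes were chosen by name, as 7 members of this enzyme family (Lpcat1, Lpcat2, Lpcat3, Lpcat4, Mboat1, Mboat2 and Mboat7), and every probe that the platform annotation gives to one of them was taken. This gave 13 probes of 7 genes, out of 25697 probes and 16593 named genes on the array. The members were chosen with earlier results of these data known, so counts of called members beside those of all probes are a description.

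The 40 mice were 9 weeks old and fell into 4 groups of 10 by the diet of the dam and the diet of the offspring after weaning, each low fat (LF) or high fat (HF). The first letter of a group stands for the dam and the second for the offspring: HH and HL mice were born to dams fed HF and were fed HF or LF after weaning, and LH and LL mice were born to dams fed LF and were fed HF or LF. All mice were of one genetic background and were killed after a fast, and 1 bead array was hybridized for each mouse. The labels give 12 cages, taken here from the study's methods to be the cages of birth, which the labels do not say. The mice of a cage had dams on 1 diet only (6 cages a diet), and maternal diet and cage cannot be told apart. In 5 cages (4, 10, 11, 20 and 23) both post-weaning diets were represented.

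Membrane phospholipids are made with one set of acyl chains and then remodelled in the Lands cycle, in which a phospholipase A2 removes the chain at the middle carbon of glycerol and a lysophospholipid acyltransferase puts another in its place. The members differ in the lysophospholipid they accept and in the chain they add. Lpcat3 incorporates polyunsaturated chains such as arachidonate and linoleate, and in mouse liver and intestine its transcription is under the nuclear receptor LXR.

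A promoter is shown for Lpcat3, the only member called in any comparison, and for Mboat1, the member that varied most between mice. All 7 members matched the RefSeq promoter table (GRCm38.p6). The stretch printed is the part of each window that lies before the annotated start of the gene, on the plus strand, at chr6:124662854-124663093 for Lpcat3 and at chr13:30136240-30136450 for Mboat1, and capitals mark CCAAT on either strand.
Lpcat3: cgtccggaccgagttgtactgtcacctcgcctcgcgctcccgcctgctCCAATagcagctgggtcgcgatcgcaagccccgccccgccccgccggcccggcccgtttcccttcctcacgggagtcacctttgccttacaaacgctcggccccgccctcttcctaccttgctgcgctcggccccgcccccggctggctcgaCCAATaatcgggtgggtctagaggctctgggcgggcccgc
Mboat1: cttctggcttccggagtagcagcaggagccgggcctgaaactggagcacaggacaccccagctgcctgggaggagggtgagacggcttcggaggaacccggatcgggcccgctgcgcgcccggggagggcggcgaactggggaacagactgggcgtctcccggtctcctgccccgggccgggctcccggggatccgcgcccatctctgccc
CCAAT stood 2 times in the Lpcat3 stretch of 240 bases and 0 times in the Mboat1 stretch of 211 bases. It was present in 33.0% of 32851 promoter windows cut to 240 bases and in 30% of those cut to 211 bases. GGGCGG, read on both strands, stood 5 times in the Lpcat3 stretch and 1 time in the Mboat1 stretch. At least 1 match was found in 31.3% of windows of 240 bases and in 26.9% of windows of 211 bases. The receptor recognition letters AGGTCA and its direct repeat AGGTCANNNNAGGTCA, searched on both strands, had 0 matches in either stretch. They were present in 13.5% and 0.0152% of windows of 240 bases and in 12.1% and 0.0122% of windows of 211 bases. The 0 matches say only that these letters are not in these windows.

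The signal of odorant and vomeronasal receptor genes, taken to be mostly silent in fat, served as background. The 95th percentile of 1305 such probes lay between 78.1 and 94.3 intensity units on the 40 arrays, and a probe was tested if it was above that value on at least 20 arrays. Median intensity over all probes lay between 98.7 and 99.1 units. The adipocyte genes checked (7 of 8 had a probe) were bright, with summed intensities of 20629 to 71772 units. On 5 arrays (LL animals 1 and 4 and HL animals 2, 6 and 8), all from LF fed mice, the mean correlation with the other arrays was 0.827 to 0.891, against a median of 0.951. Those 5 arrays had the lowest adipocyte sums (20629 to 26918.7 units), and sums of 20348.6 to 127332 units for genes of the epididymis and seminal vesicle, where the group medians were 828 to 3117 units. Of 11 such genes 10 had a probe, and all 10 were above background on some array. The highest sum in each group was 45600.8 units (HH), 127332 units (HL), 30648.7 units (LH) and 99194.3 units (LL), so that bright arrays were also found in HF fed mice. Results are also given without the 5 low-correlation arrays. As in any whole tissue, fewer cells of a type and less RNA in each of them cannot be told apart.

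Of the 13 probes, 7 passed the filter, and they belong to 5 genes. The single Lpcat1 probe, for an enzyme best known for surfactant lipid in lung, was above background on 18 of 40 arrays, and the single Lpcat4 probe on 7. Both stayed at the edge of detection, with group medians of 78.4 to 86.8 units for Lpcat1 and 72.7 to 74.3 units for Lpcat4. Among the 3 probes for Lpcat2, the member that also makes platelet-activating factor, only 1 was tested, and the other ones were above background on 0 and 3 arrays. Of 4 Mboat2 probes 2 were tested, and the other ones were above background on 9 and 16 arrays. Both Lpcat3 probes and the Mboat1 probe were above background on all 40 arrays.

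The first Lpcat3 probe (ILMN_2980858) had a lowest, median and highest intensity of 2382, 3169 and 4380 units in LH mice, against 1370.5, 1864 and 2428 units in LL mice. Every LH mouse was above the LL median, and the groups overlapped only where LL animal 7 (2427.7 units) exceeded LH animal 9 (2381.7 units). Lpcat3 rose 1.75-fold in HF fed offspring of LF fed dams, a log2 difference of 0.81 ± 0.12 (SE; 95% interval 0.56 to 1.06; adjusted p = 0.00459 by limma, n = 10 mice a group). It was 1 of 7 tested member probes called in this comparison, in which 0.218% of 14248 tested probes were called (0.204% higher and 0.014% lower).

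Among offspring of HF fed dams the same probe had 1816, 2498 and 2760 units in HH mice, against 1548, 2014 and 2441 units in HL mice. In 8 of 10 HH mice it was above the HL median, and the ranges overlapped widely. The log2 difference was 0.28 ± 0.09 (95% interval 0.08 to 0.48; adjusted p = 0.182 by limma), and 0 of 7 member probes were called, where 0.512% of all tested probes were (0.274% higher and 0.239% lower).

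**Figure D1:**
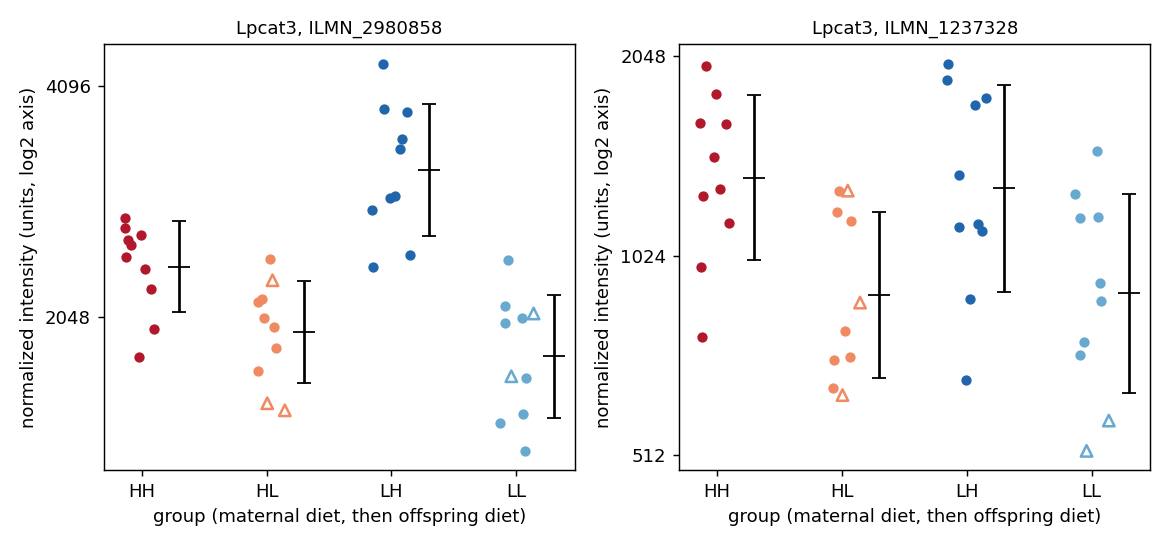
Normalized intensity (log2 axis) of both Lpcat3 probes in each mouse by group, with the mean and SD of the log2 values in black and the 5 low-correlation arrays as open triangles. On the left the groups span 1816 to 2760 (HH), 1548 to 2441 (HL), 2382 to 4380 (LH) and 1370.5 to 2428 units (LL), and on the right both HF fed groups are centred above both LF fed groups.

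Maternal diet was compared within each post-weaning diet. In HF fed mice the first Lpcat3 probe was 1816 to 2760 units (HH) against 2382 to 4380 units (LH), and 0 of 10 HH mice were above the LH median. The log2 difference was -0.42 ± 0.11 (95% interval -0.64 to -0.20), which did not pass the test (p = 0.000696 unadjusted, adjusted p = 0.121 by limma). In LF fed mice the difference was 0.11 ± 0.11 (HL minus LL; 95% interval -0.12 to 0.34), and 7 of 10 HL mice were above the LL median. The interaction (HH minus HL, less LH minus LL) was -0.53 ± 0.15 on the log2 scale, and it ranked 8 of 14248 probes by p (p = 0.00152 unadjusted) but did not pass (adjusted p = 0.935). Averaged over the offspring diets, the maternal difference was -0.16 ± 0.08 (adjusted p = 0.991). No probe on the array passed in any of these comparisons (0% called), while 1775 of 14248 had an unadjusted p under 0.05 for HH against LH, 154 for HL against LL, 621 for the interaction and 493 for the averaged maternal diet.

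The second Lpcat3 probe (ILMN_1237328) had 664, 1247 and 1993 units in LH mice, against 520, 902 and 1471 units in LL mice. It had 771.5, 1367 and 1979 units in HH mice, against 631, 829.1 and 1283 units in HL mice. Both pairs overlapped, with 8 of 10 LH mice above the LL median and 9 of 10 HH mice above the HL median. The log2 differences were 0.53 ± 0.21 for LH minus LL (adjusted p = 0.314 by limma) and 0.59 ± 0.18 for HH minus HL (adjusted p = 0.139), and neither passed. The maternal comparisons gave 0.05 ± 0.20 for HH minus LH and -0.01 ± 0.20 for HL minus LL.

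With the post-weaning diet averaged over both kinds of dam, both Lpcat3 probes rose on the HF diet. The log2 difference was 0.54 ± 0.08 for the first probe (1.46-fold, adjusted p = 2.76e-05 by limma) and 0.56 ± 0.14 for the second (1.47-fold, adjusted p = 0.0174). These were 2 of 7 member probes, where 4.27% of all tested probes were called higher, 1.12% lower and 5.39% in either direction. The call of the second probe was lost without the 5 low-correlation arrays (0.47, adjusted p = 0.0743) and with the mean of each cage as the unit (0.58, adjusted p = 0.0879), while the first probe remained called in both (adjusted p = 7.69e-05 and 0.0230). Of 14248 tested probes 768 were called over all mice, 409 without those arrays and 48 on cage means. Marker lists differed as well, where 59.1% of all tested probes were higher on the HF diet. Higher were 7 of 7 tested adipocyte genes (median 0.42, 1 called) and 5 of 5 tested endothelial genes (median 0.44, 3 called). So were 5 of 5 macrophage genes (median 0.23) and 4 of 5 mesothelial genes (median 0.41), with 0 called. Of testis genes 0 of 6 were higher (median -0.62), of epididymis and seminal vesicle genes 1 of 3, and of skeletal muscle genes 1 of 2. Without the 5 low-correlation arrays 4 of 7 adipocyte genes (median 0.02, 0 called) and 5 of 5 endothelial genes (median 0.17, 1 called) were higher. The part of these cell types and tissues in the Lpcat3 difference was not tested.

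The HH minus LH values of the probes (-0.42 and 0.05) had opposite signs, and the gap between the probes was tested directly. Over the 40 arrays their log2 values had a Pearson r of 0.317, and over the 35 arrays of higher correlation 0.200, a description of arrays that share groups and cages. The log2 gap between them (first minus second probe) was 0.83 ± 0.45 in HH mice and 1.30 ± 0.66 in LH mice (SD, n = 10). Between these groups the gap differed by -0.47 with p = 0.0794 in a two-sided permutation test of 100000 resamples (0.251 after adjustment over 4 comparisons), and adjusted p in the other comparisons was 0.251 to 0.620. This test was chosen after the values had been seen.

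**Figure D2:**
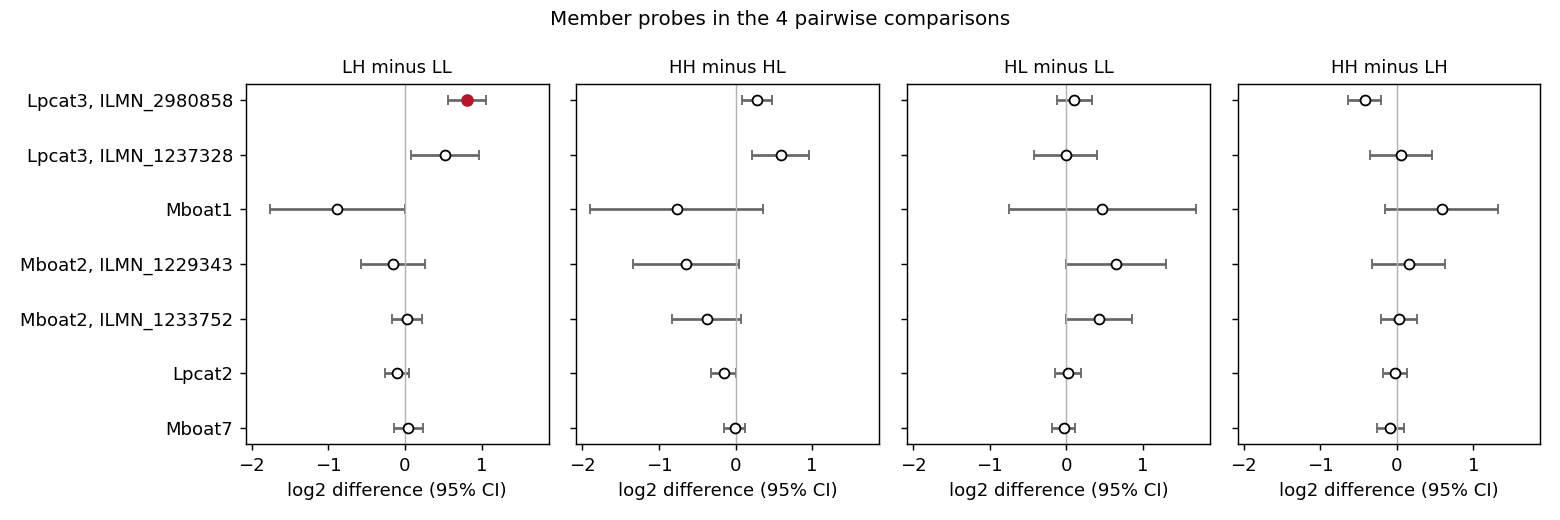
Log2 difference with its 95% interval for each of the 7 tested member probes in the 4 pairwise comparisons, with the called probe filled in red. Only the first Lpcat3 probe in LH minus LL (0.81) passed, and the widest intervals belong to Mboat1.

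Cages that held both post-weaning diets allowed the comparison to be repeated among mice with the same cage label. A cage could hold the litters of more than one dam, so that cage mates need not be littermates. For the first Lpcat3 probe, cage 4 had a mean of 4102 units in HF fed mice against 2077 units in LF fed mice, and cage 11 had 3088 against 1692 units, both from LF fed dams. Cages from HF fed dams had smaller gaps, with 2760 against 1870 units in cage 10, 2370 against 2287 units in cage 20 and 2294 against 1852 units in cage 23. HF fed mice were higher in 5 of 5 cages for both Lpcat3 probes, by 0.03 to 0.98 (first) and 0.09 to 0.94 (second) on the log2 scale. Without the low-correlation arrays, which leaves cage 20 with no LF fed mouse, the first probe was higher in 4 of 4 cages (0.19 to 0.98) and the second in 3 of 4 (-0.08 to 0.94). With cage as a fixed block in these cages the averaged difference of the first probe was 0.58 (adjusted p = 0.0219 by limma), and that of the second 0.61 (adjusted p = 0.0672).

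**Figure D3:**
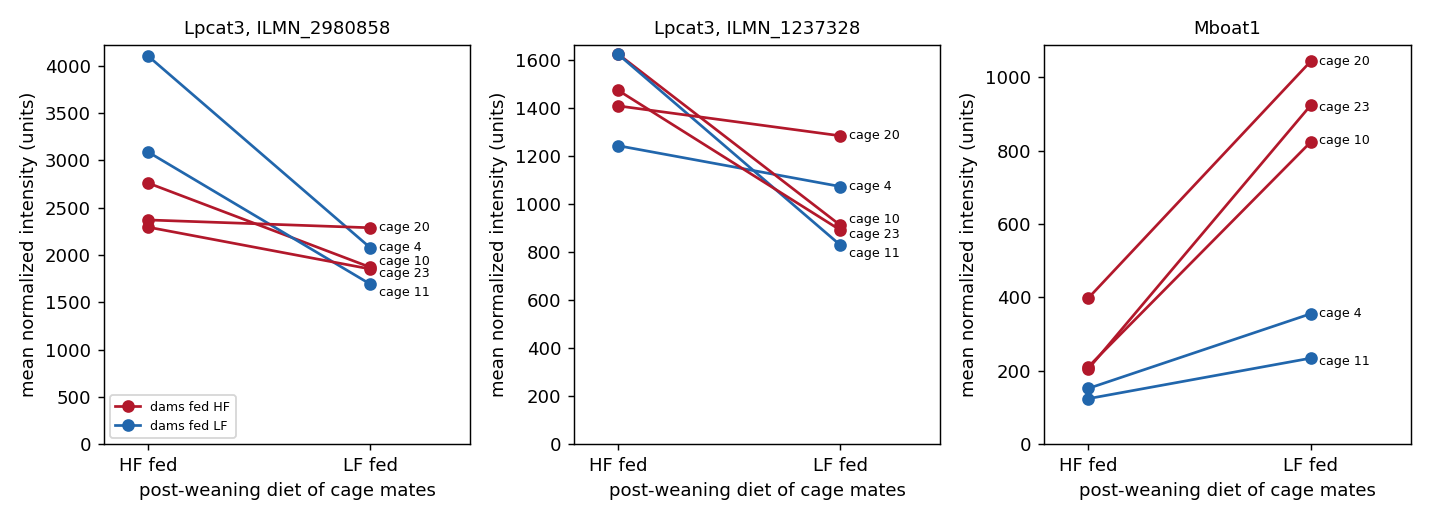
Mean intensity of HF fed and LF fed cage mates in the 5 cages that held both, joined by cage and coloured by the dams' diet. Both Lpcat3 probes were higher in HF fed mice in 5 of 5 cages, and Mboat1 was lower in HF fed mice in 5 of 5, but in 2 of 4 without the low-correlation arrays.

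The LH against LL call for Lpcat3 rested on single mice as the unit. On cage means its log2 difference was 0.81 with an adjusted p of 0.504 by limma. Without cage 8 or cage 11 it was 0.72 (adjusted p = 0.0683) or 0.80 (adjusted p = 0.0685). Calls over the whole array changed as well. Of 14248 tested probes 31 were called over all mice, 0 on cage means, and 6 and 2 without cage 8 or 11. Without the 5 low-correlation arrays the LH minus LL difference of this probe was 0.82 (adjusted p = 0.00411 by limma). It was 0.83 (adjusted p = 0.0313) without the 12 arrays on which an organ list summed to over 10000 units, a limit chosen after seeing the data. The organ lists are those of epididymis and seminal vesicle, testis and intestine, and skeletal muscle sums did not enter this limit. The HH against LH difference, not called over all cages, passed the threshold without cage 14 (-0.49, adjusted p = 0.0456 by limma). Without that cage 116 of 14248 tested probes passed, against 0 over all cages.

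Mboat1, which prefers lysophosphatidylserine and lysophosphatidylethanolamine, varied most between mice. It had 110.1, 137.8 and 380.6 units in LH mice, against 124.3, 231.2 and 1774 units in LL mice. It had 97.7, 205.0 and 899.9 units in HH mice, against 134.6, 317.8 and 1665 units in HL mice. All groups overlapped, and the spread was wide in both LF fed groups. The log2 differences were -0.89 ± 0.42 (LH minus LL, adjusted p = 0.388 by limma), -0.77 ± 0.54 (HH minus HL, adjusted p = 0.452) and -0.83 ± 0.35 averaged over dams (adjusted p = 0.146), none past the threshold. In the 5 cages with both diets HF fed mice were lower in 5 of 5, with log2 differences of -2.01 to -0.74, but 4 of these cages had a low-correlation array among the LF fed mice. Without those arrays HF fed mice were lower in 2 of the 4 cages that still held both diets (-0.92 in cage 11 and -1.01 in cage 23) and the log2 differences in cages 4 and 10 were 0.06 and 0.03.

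**Figure D4:**
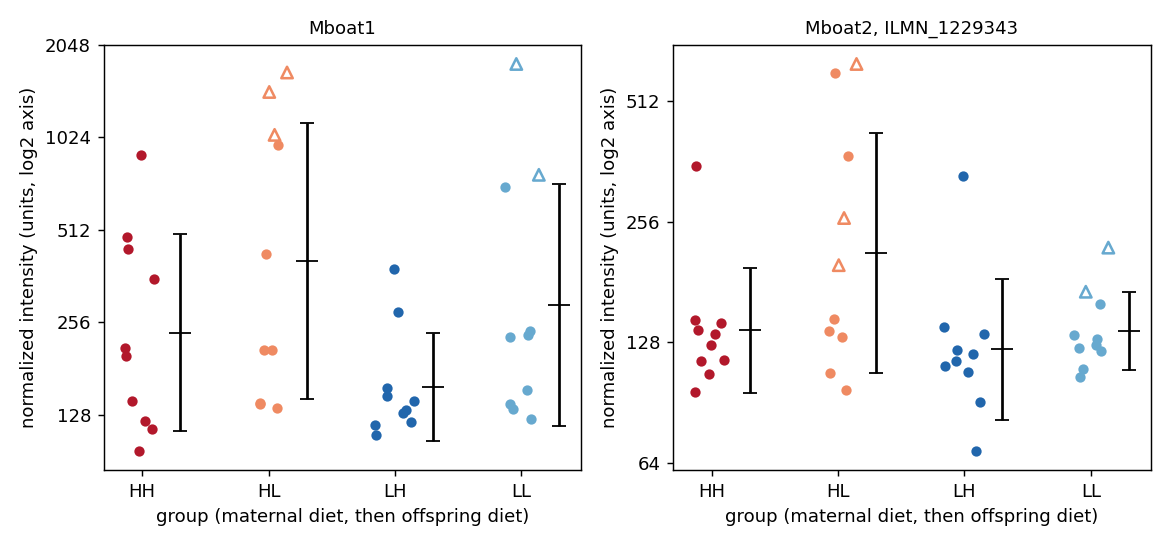
Normalized intensity (log2 axis) of Mboat1 and of the Mboat2 probe ILMN_1229343 in each mouse by group, with the mean and SD of the log2 values in black and the 5 low-correlation arrays as open triangles. The highest Mboat1 values are HL animals 6 and 2 (1665 and 1438.5 units) and LL animal 1 (1774 units), and all 3 are low-correlation arrays.

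The low-correlation arrays carried much of the Mboat1 difference. HL animal 6 (1665 units), HL animal 2 (1438.5 units), HL animal 8 (1043 units), LL animal 1 (1774 units) and LL animal 4 (773.2 units) were among the 7 brightest. Without these 5 arrays the log2 differences were -0.38 (LH minus LL), -0.02 (HH minus HL) and -0.20 (averaged over dams). Bright Mboat1 was not limited to them: HL animal 5 had 964.3 units with a testis sum of 5581.1 units, while HH animal 7 (899.9 units) and LL animal 2 (706.1 units) had testis sums of 531.8 and 1739.7 units and epididymis sums of 915.5 and 899.9 units. HH animal 7 and LL animal 2 had skeletal muscle sums of 6934.2 and 3154.6 units, against group medians of 1406 units (HH) and 1283 units (LL). Muscle sums were higher in HH animals 10 and 3 (86637.1 and 16625.6 units), and no HH mouse but animal 7 exceeded 484.6 units of Mboat1. LL animals 5 and 6 had muscle sums of 3177 and 2479 units, with a mean of 146.5 units of Mboat1. Whether other tissue accounts for any of these Mboat1 values was not tested.

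**Figure D5:**
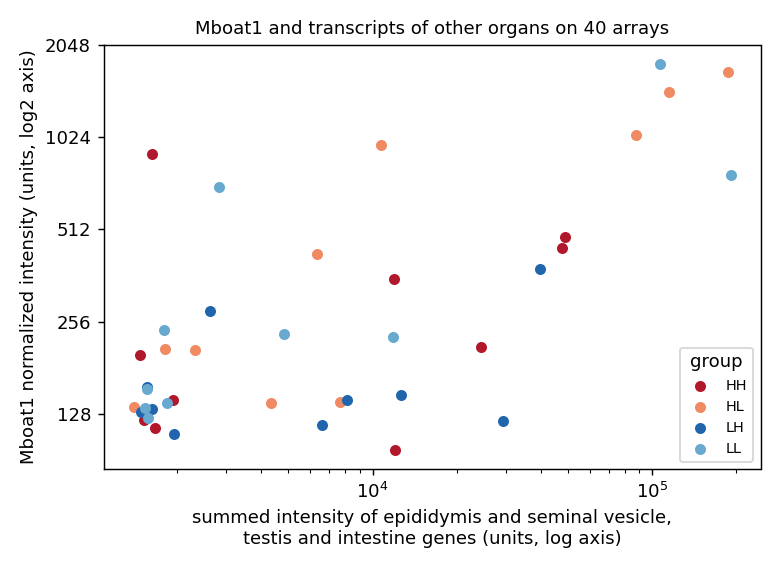
Mboat1 intensity (log2 axis) against the summed intensity of epididymis and seminal vesicle, testis and intestine genes (log axis) on each of the 40 arrays, coloured by group. The 5 arrays at the right, with 773.2 to 1774 units of Mboat1, are the low-correlation arrays, and HH animal 7 (899.9 units) and LL animal 2 (706.1 units) are bright at low sums.

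Mboat2, an acyltransferase for lysophosphatidylcholine and lysophosphatidylethanolamine that favours oleate, was read best by ILMN_1229343. This probe had 97.3, 172.8 and 635.1 units in HL mice, against 104.9, 127.9 and 220.7 units in LL mice. It had 96.4, 130.2 and 353.1 units in HH mice and 68.5, 117.4 and 334.1 units in LH mice. The highest values were those of HL animal 6 (635.1 units, on a low-correlation array) and HL animals 3 and 5 (603.1 and 373.0 units, on others). HH animal 10 (353.1 units) and LH animal 7 (334.1 units) came next, above HL animal 8 (261.7 units, on a low-correlation array). All ranges overlapped. The log2 difference was 0.65 ± 0.31 for HL minus LL (95% interval -0.0027 to 1.30; p = 0.0509 unadjusted, adjusted p = 1.00 by limma) and -0.64 ± 0.33 for HH minus HL (adjusted p = 0.326). Without the 5 low-correlation arrays these were 0.53 and -0.39, and with each cage left out in turn HH minus HL ran between -0.91 and -0.32. The second tested probe (ILMN_1233752) gave 0.43 ± 0.21 and -0.38 ± 0.22 for the same comparisons, and neither passed. It was near background and barely met the filter, being above background on 21 of 40 arrays. These were 7 HL, 5 LL, 5 LH and 4 HH arrays, so that it is no separate support for high values in HL mice. HF fed mice were lower in 5 of 5 mixed cages for ILMN_1229343 (log2 differences of -1.39 to -0.23) and in 4 of 5 for ILMN_1233752 (-0.84 to 0.20). Without the low-correlation arrays they were lower in 4 of 4 (-0.89 to -0.002) and 2 of 4 (-0.41 to 0.37). For ILMN_1229343 the differences in cages 10 and 4 were then only -0.002 and -0.07.

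Lpcat2 and Mboat7 were dim. Lpcat2 had group medians of 98.0 to 105.9 units, and its largest log2 difference was -0.15 ± 0.08 (HH minus HL; 95% interval -0.32 to 0.01; adjusted p = 0.325 by limma). Mboat7, which places arachidonate in phosphatidylinositol, had medians of 94.6 to 101.7 units and log2 differences of -0.08 to 0.04 in the 4 pairwise comparisons, with 95% intervals that reached from -0.26 to 0.23.

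Genes around the acyltransferases were read from 5 lists, with the probe of highest mean for each gene. Median log2 differences over all 9797 tested genes were 0.02 for LH minus LL and 0.02 for HH minus HL.

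LXR receptors and targets had 14 genes, of which 10 were tested. Pltp, which moves phospholipids between lipoproteins, was the gene called in both pairwise comparisons of post-weaning diets. Of the 9797 tested genes 0.255% were called in LH against LL and 0.521% in HH against HL. Pltp had 2126, 2592 and 3737 units in LH mice, against 1512, 1790 and 2420 units in LL mice. In offspring of HF fed dams it had 2137, 2921 and 4990 units in HH mice, against 559.7, 1711 and 2223 units in HL mice. In both pairs the lowest HF fed mouse was below the highest LF fed mouse. Pltp rose by 0.50 ± 0.10 in LH against LL (adjusted p = 0.0481 by limma) and by 1.06 ± 0.22 in HH against HL (adjusted p = 0.0335), and without the 5 low-correlation arrays the values were 0.44 (adjusted p = 0.0645) and 0.70 (adjusted p = 0.0169). On cage means they were 0.51 (adjusted p = 0.522) and 1.16 (adjusted p = 0.309). Among all tested probes 57.2% were higher in LH than LL and 55.9% in HH than HL. Of the 10 genes, 9 were higher in LH than LL (median 0.26) and 8 in HH than HL (median 0.35). Without the 5 low-correlation arrays 8 and 6 were higher (medians 0.13 and 0.08), and without the 12 arrays with bright organ lists 8 and 6 (medians 0.15 and 0.07).

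Averaged over dams, Pltp (0.78 ± 0.13, adjusted p = 0.000204 by limma) and Apoe, a lipoprotein component (0.66 ± 0.11, adjusted p = 0.000375), rose on the HF diet. These were 2 of the 10 tested genes, where 5.57% of the 9797 tested genes were called. On cage means neither was called (adjusted p = 0.0717 and 0.105). The receptor Nr1h3 (LXR alpha) was at 0.51 ± 0.19 (adjusted p = 0.0910), and the sterol exporters Abca1 and Abcg1 at 0.17 ± 0.20 and 0.29 ± 0.11 (adjusted p = 0.635 and 0.0995). Srebf1, which drives lipid synthesis, was at 0.10 ± 0.17 averaged over dams, and at -0.55 ± 0.12 for HH minus LH (adjusted p = 0.0907). For Nr1h2 the annotation gave no probe.

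Phospholipases A2, which start the Lands cycle, and lysophospholipases had 25 genes, of which 19 were tested and 0 called in either pairwise comparison of post-weaning diets. Averaged over dams, where 5.57% of the 9797 tested genes were called, 2 of the 19 rose and 1 fell: Pla2g2e, a secreted phospholipase A2 (0.67 ± 0.20, adjusted p = 0.0370 by limma), Pla2g6, a calcium-independent one (0.28 ± 0.07, adjusted p = 0.0206), and Lypla2, a lysophospholipase and thioesterase (fell by 0.17 ± 0.04, adjusted p = 0.0171). Without the 5 low-correlation arrays Lypla2 was called (adjusted p = 0.0198), while Pla2g2e (0.37, adjusted p = 0.361) and Pla2g6 (0.22, adjusted p = 0.0522) were not. On cage means none of the 3 was called (adjusted p = 0.152 to 0.155 by limma). Of all 14248 tested probes 409 were called without the low-correlation arrays and 48 on cage means. Pla2g4a and Plaat3 (formerly Pla2g16) were too dim to test.

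No gene of the other 3 lists was called in any of the 7 comparisons over all arrays. Of 10 other lysophospholipid and glycerophosphate acyltransferases tested, Agpat2, which makes phosphatidic acid, was at 0.93 ± 0.26 for LH minus LL (adjusted p = 0.149 by limma) and at -0.74 ± 0.16 for HH minus LH (adjusted p = 0.0895). Lpgat1, named for its action on lysophosphatidylglycerol, was at 1.19 ± 0.36 for HH minus HL (adjusted p = 0.138). Of these 10 genes, 7 were higher in LH than LL (median 0.07) and 6 in HH than HL (median 0.06). Without the 5 low-correlation arrays 4 and 3 were higher (medians -0.03 and -0.07). For Lclat1 the annotation gave no probe. Of 16 phospholipid synthesis genes tested, 14 were higher in LH than LL (median 0.08) and 8 in HH than HL (median 0.01). Over all arrays 57.2% and 55.9% of all tested probes were higher in these comparisons. Without the 5 low-correlation arrays 10 and 8 of the 16 genes were higher (medians 0.05 and 0.01). With the 12 arrays of bright organ lists left out, 10 and 6 were (medians 0.06 and -0.02). Averaged over dams Pcyt1a, Chka and Pemt, enzymes of phosphatidylcholine synthesis, were at 0.10 ± 0.08, -0.12 ± 0.11 and -0.21 ± 0.22. Of 4 acyl-CoA synthetases, which supply the acyl donors, 3 were higher in LH than LL (median 0.08) and 1 in HH than HL (median -0.10), while without the 5 low-correlation arrays these were 4 and 2 (medians 0.10 and 0.06). Without the 5 low-correlation arrays, Gpat4 was called lower in HH against HL and averaged over dams, and Acsl3 was called higher in LH against LL and averaged over dams. Without these arrays 60 (LH against LL), 194 (HH against HL) and 409 (averaged over dams) of all 14248 tested probes were called. Without the 12 arrays with bright organ lists Acsl3 (higher) and Chpt1 (lower) were called, averaged over dams only, where 245 of all tested probes were. On cage means no gene of these lists was called. There 0 (LH against LL), 2 (HH against HL) and 48 (averaged over dams) of all tested probes were called.

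The probes whose pattern was most like that of the first Lpcat3 probe were ranked by Pearson r of log2 values over the 40 arrays. The 5 highest were Gnb5 (r = 0.823), both probes of Insig1 (0.810 and 0.790), Tlcd2 (0.781) and Lhfpl2 (0.774). Over the 35 arrays of higher correlation they were Snhg11 (r = 0.883), Gnb5 (0.877), Mlkl (0.859), Vkorc1l1 (0.855) and Vac14 (0.852). Only Gnb5 was among the 5 highest in both, and these arrays share diets and cages.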

How the data were processed

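Total RNA from 40 pads was hybridized to MouseRef-8 v2.0 beadchips. The deposited values are linear probe intensities that the authors quantile-normalized over all 40 arrays, and BeadStudio is the tool that the submitters' notes list (version not given in the sources used here). No background was subtracted here. Symbols came from the platform annotation, updated by gene identifier for 23962 of 25697 probes (0 probes carried several symbols, and 1719 were unnamed).

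Log2 intensities were compared with limma 3.58.1 in R 4.3.3 (moderated fits with an intensity trend). The pairwise comparisons used the 20 arrays of their 2 groups, and the averaged effects and the interaction used all 40. P-values were adjusted by Benjamini-Hochberg over 14248 tested probes, and a probe was called under 0.05. The fits were tested on simulated data. The number of arrays limits the precision. No 2 arrays were identical.

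Members and lists were chosen with earlier results of these data known. Named were every member, up to 4 called genes of each list by smallest p, and a set of genes named whatever their result, and for Lpcat3 the 5 probes of highest correlation. Alternatives were cage as a random block or a fixed block, cage means, array and cage removal, centring, offset, filter, trend, probe choice and 1 joint model. Leaving out the 12 arrays with an organ list summing to over 10000 units, the list counts and cage-mate differences without arrays and the probe gap test were added after seeing the data.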

Additional observations from a re-analysis of the deposited data

Results flagged for a closer look

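In 28 sets of a tested member probe in a group of 10 mice, 3 held a mouse far from the rest of its group (gap to the nearest mouse over the range of the group, both on the log2 scale, above 0.466), and chance flags about 1 in 20 such sets. The Mboat2 probe ILMN_1229343 in HH animal 10 was 353.1 units, and the next HH mouse was at 145.9 units (ratio 0.681). The same probe in LH animal 7 was 334.1 units, and the next LH mouse was at 139.4 units (ratio 0.552). The Lpcat2 probe ILMN_2627920 in LL animal 1 was 143.4 units, and the next LL mouse was at 115.7 units (ratio 0.485). These mice had epididymis and seminal vesicle sums of 37777.7, 30648.7 and 99194.3 units. Their skeletal muscle sums were 86637.1, 601.5 and 765.1 units, and the part of other tissue in the 3 values was not tested.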

How the results depend on the processing

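The number of the 7 tested member probes called is given here as the member count, beside the calls among all tested probes. For LH against LL the member count was 1 over all mice and 0 on cage means. It was 0 in the 2 cages that held both diets with cage as a fixed block, and 0 to 1 with each cage left out in turn (0 without cage 8 or 11). Of all 14248 tested probes 31 were called over all mice, and 0 on cage means or with the fixed block. Without cage 8 or 11, 6 and 2 were called. For HH against LH the member count was 0, and 0 to 1 with each cage left out in turn (1 without cage 14). Without cage 14, 116 of all tested probes were called, against 0 over all mice. For the post-weaning diet averaged over dams the member count was 2 over all mice. It was 1 on cage means, without low-correlation arrays, with 1 probe per gene (5 probes tested) and in cages with both diets. With each cage left out in turn it was 1 to 2 (1 without cage 11, 14 or 23). Of all tested probes 768 were called over all mice, 48 on cage means, 409 without low-correlation arrays and 392 in cages with both diets. With 1 probe per gene 551 of 9797 were called, and without cage 11, 14 or 23, 342, 438 and 179 were. With cage as a random block, and without the 12 arrays with bright organ lists, the member counts in these comparisons were 1, 0 and 2. Of all tested probes 18, 0 and 811 were called with the random block, and 23, 0 and 245 without the 12 arrays. In the other comparisons the member count was 0 under every setting run. Fewer units or probes enter cage means, mixed cages and 1 probe per gene, and for the other losses the cause was not tested. Dim probes limit Lpcat1, Lpcat2, Lpcat4, Mboat7 and the Mboat2 probe ILMN_1233752, whose signal was near background. No paired analysis was possible because the replicate numbers only follow the order of the samples, so that pairing by cage, with cage as a block, took its place.

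Of the log2 differences of member probes under other settings (cage removal aside), 477 kept their sign and their side of the threshold, 5 lost their call and 15 changed sign. In cages with both diets and cage as a fixed block, the changed signs gave 0.0293 for Lpcat2 in LH minus LL, -0.106 for Mboat2 (ILMN_1233752) in LH minus LL. On cage means, the changed signs gave 0.0713 for Lpcat3 (ILMN_1237328) in HL minus LL, 0.0111 for Lpcat2 in HH minus LH, -0.00822 for Lpcat3 (ILMN_1237328) in the interaction, -0.0863 for Mboat1 in the interaction, -0.00121 for Mboat7 in post-weaning diet averaged over dams, 0.0437 for Lpcat2 in maternal diet averaged over offspring diet. With arrays centred on their medians, the changed signs gave 0.00623 for Lpcat3 (ILMN_1237328) in HL minus LL, -0.0108 for Mboat7 in post-weaning diet averaged over dams, 0.00785 for Lpcat2 in maternal diet averaged over offspring diet. Without the 12 arrays whose organ lists were bright, the changed signs gave -0.00768 for Lpcat3 (ILMN_1237328) in HH minus LH, -0.0911 for Mboat2 (ILMN_1233752) in HH minus LH, -0.13 for Lpcat3 (ILMN_1237328) in maternal diet averaged over offspring diet. Without low-correlation arrays, the changed signs gave -0.065 for Lpcat3 (ILMN_1237328) in maternal diet averaged over offspring diet.

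With each cage left out in turn, log2 differences that changed sign at least once ranged as follows. Mboat2 (ILMN_1233752) gave -0.0131 to 0.0812 in LH minus LL, -0.0595 to 0.118 in HH minus LH. Mboat7 gave -0.0602 to 0.0901 in LH minus LL, -0.0275 to 0.0244 in HH minus HL, -0.0927 to 0.00696 in HL minus LL, -0.0982 to 0.052 in the interaction, -0.0342 to 0.0409 in post-weaning diet averaged over dams. Lpcat2 gave -0.0175 to 0.0674 in HL minus LL, -0.0613 to 0.00702 in HH minus LH, -0.0926 to 0.0245 in the interaction, -0.0213 to 0.0316 in maternal diet averaged over offspring diet. Lpcat3 (ILMN_1237328) gave -0.0659 to 0.0719 in HL minus LL, -0.193 to 0.178 in HH minus LH, -0.185 to 0.217 in the interaction, -0.101 to 0.085 in maternal diet averaged over offspring diet. Mboat2 (ILMN_1229343) gave -0.0475 to 0.298 in HH minus LH. Mboat1 gave -0.394 to 0.528 in the interaction.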
